A study of Mus musculus with 4 samples.

Results

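The genes described here are 10 regulators of the posterior primitive streak and early mesoderm: the T-box factors *T* and *Tbx6*, the bHLH factors *Mesp1*, *Mesp2* and *Msgn1*, the homeobox factors *Evx1* and *Mixl1*, the zinc finger factors *Snai1* and *Sp5*, and the secreted ligand *Fgf8*. They were taken by gene symbol, and all 10 were among the 24347 gene rows of the RNA-seq data. The samples were embryoid bodies (EBs), floating aggregates of differentiating mouse embryonic stem cells (mESCs). They were made from mESCs of strain 129/Ola and collected at day 3, in medium with 15% serum from which LIF, the cytokine that maintains mESCs, had been withdrawn. EBs of WT mESCs were compared with EBs of mESCs whose *Gm11549* promoter had been deleted (promoter KO), with 2 samples of each genotype, numbered 1 and 2 in both. *Gm11549* encodes the micropeptide NEMEP, and the comparison asks how its absence bears on mesendoderm differentiation. The promoter was deleted with CRISPR/Cas9 and a pair of guide RNAs, and mutant lines were grown from sorted single cells, so that each line is 1 clone. The sources used here do not say which clone either promoter KO sample came from.

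The primitive streak is the region of the gastrulating epiblast where cells leave the epithelium to form mesoderm and endoderm. Nodal and Wnt signals switch on *T*, *Mixl1* and *Eomes* there, FGF8 and SNAI1 act in the cells' passage out of the epithelium, and *Mesp1* marks the earliest mesoderm to leave the streak. *Tbx6*, *Msgn1* and *Mesp2* act later, in the paraxial mesoderm that gives rise to somites.

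In the GENCODE M21 annotation of GRCm38, the build the values were made on, the members lie on 7 chromosomes. *T* is at chr17:8434423-8442496 (plus strand), *Tbx6* at chr7:126781483-126785560 (plus), *Evx1* at chr6:52313498-52318378 (plus), *Mixl1* at chr1:180693043-180697034 (minus), *Msgn1* at chr12:11208360-11208972 (minus), *Snai1* at chr2:167538195-167542814 (plus), *Sp5* at chr2:70474923-70477729 (plus) and *Fgf8* at chr19:45736798-45742915 (minus). *Mesp1* (chr7:79792241-79793788, minus) and *Mesp2* (chr7:79810727-79813439, plus) are neighbours, with 16938 bases between them. No member had a transcript of another gene at 95% identity or more over 200 bases or more. Only *Evx1* overlaps another gene, the antisense transcript *Evx1os*, over 1335 bases at its start. No row carries the symbol *Evx1os*, and whether it is listed under another symbol was not checked. Because no source gives the strand setting of the counting, reads from it and from *Evx1* cannot be told apart.

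RefSeq promoter windows (GRCm38.p6, 250 bases before to 50 after the start of the gene) were found for 8 of the 10 members, *Mixl1* and *Fgf8* being the other two. They were searched on both strands for 6 motifs. CTTTGAT, bound by TCF/LEF factors of the Wnt pathway, was in the windows of *Mesp1*, *Msgn1* and *Sp5* (3 of 8, against 3.73% of all 32851 windows). GGTGTGA, a T-box site, was in that of *Mesp1* (3.98% of all windows), and AATNCACA, bound by FOXH1 of the Nodal pathway, in that of *Mesp2* (3.60%). CAGGTG, an E-box of the SNAIL kind, was in the windows of *T*, *Evx1*, *Mesp1* and *Snai1* (20.2%). The GC box GGGCGG was in those of *T* and *Mesp2* (35.7%) and TATAAA in that of *Tbx6* (13.6%). CAGGTG and GGTGTGA share the letters GGTG and can overlap. These matches describe the letters of the windows only. The 5 windows printed here are those of *T*, the most abundant member, and of the members with a TCF/LEF, T-box or FOXH1 match.

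The windows are written 5′ to 3′ on the strand of each gene, at chr17:8434173-8434472 for *T* (plus), chr7:79793541-79793840 for *Mesp1* (minus), chr7:79810477-79810776 for *Mesp2* (plus), chr12:11208899-11209198 for *Msgn1* (minus) and chr2:70474673-70474972 for *Sp5* (plus). Capitals mark CAGGTG in *T*, the E-box, TCF/LEF and T-box matches in this order in *Mesp1* (the T-box match being TCACACC, which is GGTGTGA on the other strand), AATCCACA in *Mesp2*, ATCAAAG, the TCF/LEF match as read on the other strand, in *Msgn1* and CTTTGAT in *Sp5*. GC boxes are left in lower case.
T: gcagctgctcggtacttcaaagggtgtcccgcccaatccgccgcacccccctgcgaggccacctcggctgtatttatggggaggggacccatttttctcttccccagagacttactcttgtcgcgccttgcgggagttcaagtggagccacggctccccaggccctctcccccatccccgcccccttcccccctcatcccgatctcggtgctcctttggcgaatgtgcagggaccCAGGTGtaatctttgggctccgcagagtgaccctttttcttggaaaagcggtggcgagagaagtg
Mesp1: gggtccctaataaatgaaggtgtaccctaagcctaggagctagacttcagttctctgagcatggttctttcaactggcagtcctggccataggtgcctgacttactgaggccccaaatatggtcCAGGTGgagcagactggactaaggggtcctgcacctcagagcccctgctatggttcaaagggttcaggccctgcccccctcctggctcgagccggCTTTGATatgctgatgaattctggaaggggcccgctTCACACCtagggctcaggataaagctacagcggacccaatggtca
Mesp2: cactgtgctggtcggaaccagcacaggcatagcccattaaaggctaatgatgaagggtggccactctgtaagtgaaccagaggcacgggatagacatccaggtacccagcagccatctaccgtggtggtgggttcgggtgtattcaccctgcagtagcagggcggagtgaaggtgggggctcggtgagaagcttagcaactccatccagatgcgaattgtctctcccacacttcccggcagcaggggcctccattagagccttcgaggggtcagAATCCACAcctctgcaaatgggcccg
Msgn1: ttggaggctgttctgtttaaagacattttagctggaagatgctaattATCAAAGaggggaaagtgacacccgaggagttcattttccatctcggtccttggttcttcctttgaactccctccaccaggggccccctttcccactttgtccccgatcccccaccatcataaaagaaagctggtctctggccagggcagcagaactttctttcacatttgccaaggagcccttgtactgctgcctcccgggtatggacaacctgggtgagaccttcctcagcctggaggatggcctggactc
Sp5: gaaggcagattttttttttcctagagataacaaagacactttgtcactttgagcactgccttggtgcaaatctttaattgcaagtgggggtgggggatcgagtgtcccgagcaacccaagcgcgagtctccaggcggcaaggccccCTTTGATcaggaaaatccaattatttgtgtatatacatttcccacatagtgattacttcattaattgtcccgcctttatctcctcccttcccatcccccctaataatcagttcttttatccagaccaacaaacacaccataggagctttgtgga
Counted from the RefSeq start, the first base of the TCF/LEF match was at −31 in *Mesp1*, −104 in *Sp5* and −203 in *Msgn1*, and the T-box match of *Mesp1* lay after the start, at 6. For *Mesp1* the GENCODE start, 79793788 on the minus strand, lies further upstream, within the window. All 3 marked matches of *Mesp1* lie after that start, inside the gene as GENCODE annotates it. The 2 annotations also differ in the start of *Msgn1*, whose match lies before both.

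Expression values, whose columns name no unit, were taken as FPKM, fragments scaled to transcript length and to the mapped fragments of the sample, a scale on which levels of different genes can be compared. Whether the samples were also scaled to each other is not stated. On this reading the depth, estimated from the values that single fragments give, came to about 24700000 fragments for WT 1 and 21900000 for WT 2, and to 21600000 for promoter KO 1 and 20100000 for promoter KO 2. The targeted gene, *Gm11549*, had 0.750 FPKM in WT 1 and 0.522 in WT 2, while it was listed at 0 in promoter KO 1 and had 0.0659 FPKM in promoter KO 2. The order of the samples was that of their labels. As for the streak identity of the genes, *T* reached 306 and 448 FPKM in the WT samples, while the pluripotency gene *Pou5f1* stood at 1499 and 1188 FPKM, so that the WT EBs expressed genes of both states. In such bulk samples, fewer cells of a type and less RNA per cell cannot be told apart.

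In promoter KO EBs every member was below its WT level. In all 10 genes the higher promoter KO value was below the lower WT value, a separation found in 32.4% of the 11941 tested genes (and the opposite one in 32.9%). The mean left in promoter KO ranged from 31.0% of the WT mean (*Fgf8*) to 3.92% (*Mesp1*) among the 9 tested members. A fall past an adjusted p of 0.05 (limma with Benjamini-Hochberg adjustment over all tested genes) was found for *Mesp1*, *Mixl1*, *Evx1*, *Sp5* and *Fgf8*, 5 of the 10 members, against 1.89% of all tested genes lower and 1.68% higher. The other 4 tested members, *T*, *Snai1*, *Mesp2* and *Tbx6*, did not pass, and *Msgn1* was not tested. Testing was done on log2(FPKM + 1) in genes that reached 1 FPKM in 2 or more samples, a scale that understates the change of low genes. *Msgn1* missed this filter and *Tbx6* passed it only through the WT samples.

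**Figure D1:**
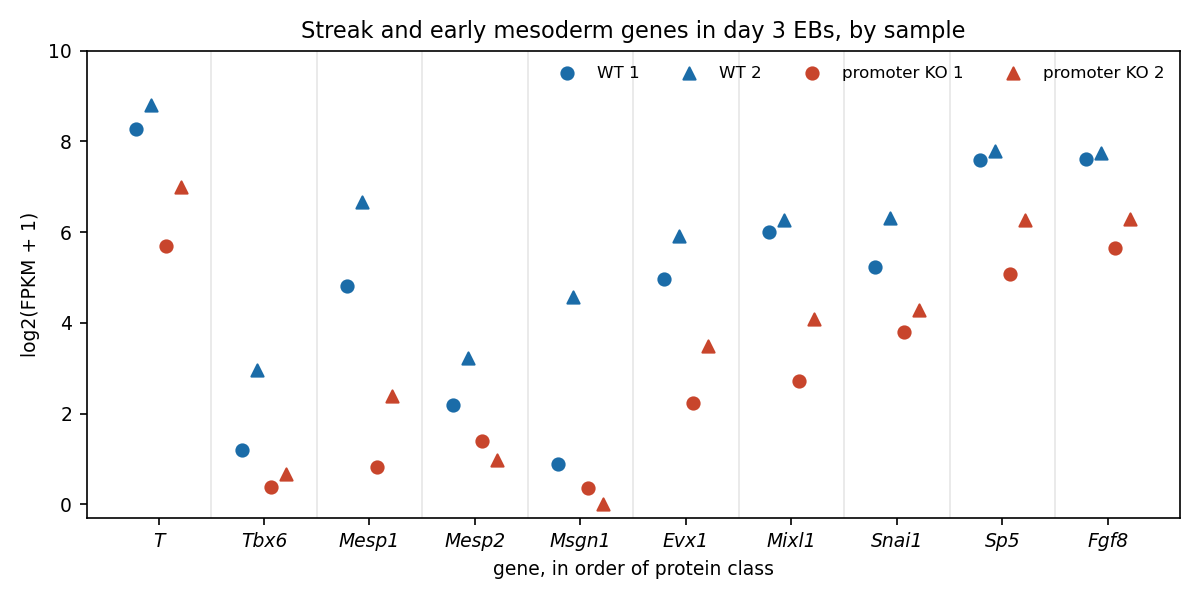
Expression of the 10 genes in each of the 4 samples, as log2(FPKM + 1), with WT samples in blue and promoter KO samples in red (circles for sample 1, triangles for sample 2). In every gene both red symbols lie below both blue ones, and WT 2 lies above WT 1.

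*T*, or Brachyury, the T-box factor that defines the streak, was the most abundant member in all 4 samples. It stood at 306 FPKM in WT 1 and 448 in WT 2, whereas promoter KO 1 stood at 50.5 and promoter KO 2 at 127. Promoter KO 1 was the lowest sample, and the genotypes did not overlap. Its log2 fold change was −2.19 (standard error 0.42), and the adjusted p of 0.0509 in limma missed the threshold. *Tbx6*, the T-box factor of paraxial mesoderm, was low throughout, with 1.29 FPKM in WT 1 and 6.74 in WT 2, against 0.307 in promoter KO 1 and 0.597 in promoter KO 2. Most of its WT expression came from WT 2, at 5.22 times WT 1. limma gave a log2 fold change of −1.54 with a standard error of 0.53 and an adjusted p of 0.124, and without WT 2 the fold change was −0.66.

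Of the bHLH factors, *Mesp1* had the largest fall of the 9 tested members on the log2(FPKM + 1) scale. It was listed at 27.0 FPKM in WT 1 and 100.7 in WT 2, against 0.759 in promoter KO 1 and 4.24 in promoter KO 2, so that the higher promoter KO sample had 15.7% of the lower WT sample. The log2 fold change was −4.14 with a 95% confidence interval of −5.88 to −2.39 (adjusted p = 0.0467, limma). The low values still rested on about 17.6 and 91.5 fragments, at an assumed fragment length of 200 bases and the annotated transcript length. *Mesp2*, its neighbour and a segmentation factor, had 3.53 FPKM in WT 1 and 8.33 in WT 2, against 1.63 in promoter KO 1 and 0.951 in promoter KO 2. It was 1 of 2 members in which promoter KO 1 was the higher promoter KO sample, and its log2 fold change was −1.52 (adjusted p = 0.0652, limma, standard error 0.35). *Msgn1*, a master regulator of presomitic mesoderm, was essentially a gene of a single sample, with 22.6 FPKM in WT 2 against 0.846 in WT 1 and 0.280 in promoter KO 1, and listed at 0 in promoter KO 2. These values correspond to about 205 fragments in WT 2, 8.63 in WT 1 and 2.50 in promoter KO 1. The ribosomal protein gene *Rpl29*, named after its value was seen, was also listed at 0 in promoter KO 2, so that a listed 0 need not mean absence. The difference of *Msgn1* between genotypes, −2.54 on the log2(FPKM + 1) scale, became −0.71 without WT 2.

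The homeobox factors *Evx1*, a mark of the proximal posterior streak, and *Mixl1*, a Nodal target of the streak, both fell in promoter KO EBs. *Evx1* was at 30.5 FPKM in WT 1 and 59.6 in WT 2, against 3.70 in promoter KO 1 and 10.1 in promoter KO 2, values that *Evx1os* reads may be part of. *Mixl1* was at 63.0 FPKM in WT 1 and 76.3 in WT 2, with the WT samples close together, against 5.56 in promoter KO 1 and 15.9 in promoter KO 2. Promoter KO 1 was again the lowest sample for both. Their log2 fold changes were −2.59 for *Evx1* (standard error 0.46, adjusted p = 0.0472) and −2.74 for *Mixl1* (standard error 0.41, adjusted p = 0.0389, limma).

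*Snai1* encodes a repressor of epithelial genes such as E-cadherin. WT 1 had 36.7 FPKM of it and WT 2 78.1, promoter KO 1 had 13.0 and promoter KO 2 18.5, and promoter KO 2 had 50.3% of WT 1. Its log2 fold change was −1.73 with a standard error of 0.35, and the adjusted p of 0.0546 (limma) did not pass. *Sp5*, a Wnt target that acts with TCF/LEF factors, was at 193 FPKM in WT 1 and 222 in WT 2, against 32.7 in promoter KO 1 and 75.7 in promoter KO 2. Its gap between genotypes was larger than the gaps within them, and *Sp5* fell by 2.03 on the log2 scale (standard error 0.36, adjusted p = 0.0467, limma).

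*Fgf8*, the FGF ligand of the streak, was the second member in abundance in promoter KO EBs. WT 1 had 196 FPKM and WT 2 213, whereas promoter KO 1 had 48.9 and promoter KO 2 77.7. Its pooled SD within genotypes, 0.33 on the log2(FPKM + 1) scale, was the smallest of the members. *Fgf8* fell by 1.71 on the log2 scale (standard error 0.21), and its adjusted p of 0.0310 (limma) was the lowest of the members.

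The 5 calls depended on single samples. Without WT 2, and likewise without promoter KO 1, 0 of the 9 tested members and 0 of all tested genes passed an adjusted p of 0.05 in limma, with 9 and 8 of the members below an unadjusted p of 0.05 (1875 and 2009 of all tested genes). Without promoter KO 2, 6 members passed, *T* in addition to the 5. Without WT 1, 4 passed, *Tbx6*, *Mesp1*, *Mesp2* and *Snai1*, of which only *Mesp1* was among the 5. In these fits the remaining sample of a genotype is assumed to vary like the other genotype. Every member's difference kept its negative sign in each of them. For any gene here, the smallest two-sided p of an exact permutation test over 2 and 2 samples is 0.333.

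The samples of a genotype differed in these genes in a patterned way. WT 2 was above WT 1 in all 10 members, against 49.1% of all tested genes, and promoter KO 2 was above promoter KO 1 in 8 of 10, against 53.5%. The ratio of WT 2 to WT 1 was 1.08 for *Fgf8*, 1.15 for *Sp5*, 1.21 for *Mixl1*, 1.46 for *T* and 1.95 for *Evx1*. It was 2.13 for *Snai1*, 2.36 for *Mesp2*, 3.73 for *Mesp1*, 5.22 for *Tbx6* and 26.7 for *Msgn1*, and only 1.67% of all tested genes reached a ratio of 2. The WT samples were thus closest in *Fgf8*, *Sp5* and *Mixl1* and furthest apart in *Tbx6* and *Msgn1*. In the list of paraxial and presomitic mesoderm genes WT 2 was the higher WT sample in 9 of 10 tested genes, and in that of lateral and cardiac mesoderm in 9 of 9, but in the anterior streak and definitive endoderm list in 5 of 11. Among markers of other cell types, WT 2 was the higher in 7 of 7 tested naive mESC markers and in 0 of 5 primed epiblast markers. *Kdr* (1.67 and 11.3 FPKM) and *Hand1* (1.27 and 11.3 FPKM), named after their values were seen, differed strongly between WT 1 and WT 2. The part of this difference in the results was not tested.

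Compared sample by sample, each promoter KO sample against each WT sample, *Mesp1* had the largest loss of the 9 tested members. Its promoter KO values were 0.754% to 15.7% of the WT values over the 4 pairs of samples, against 7.30% to 25.3% for *Mixl1*, 6.22% to 33.3% for *Evx1* and 11.3% to 41.5% for *T*. For *Sp5* the range was 14.7% to 39.2%, for *Fgf8* 23.0% to 39.6%, for *Snai1* 16.6% to 50.3%, for *Mesp2* 11.4% to 46.1% and for *Tbx6* 4.56% to 46.3%. The untested *Msgn1* was in promoter KO 1 at 33.1% of its WT 1 value and at 1.24% of its WT 2 value, and listed at 0 in promoter KO 2. By the difference of mean log2(FPKM + 1), the order from the largest loss was *Mesp1*, *Mixl1*, *Evx1*, *Msgn1*, *T*, *Sp5*, *Snai1*, *Fgf8*, *Tbx6* and *Mesp2*. Of the 9 pairs of neighbours in this order, only *Mesp1* and *Mixl1* were further apart (1.40) than the pooled SD of their log2 difference within samples (0.80). The other 8 pairs of neighbours did not differ beyond their spread, whereas 23 of all 45 pairs of members did. *Mesp1* ranked 1 or 2 in each of the 4 pairs of samples and *Evx1* ranked 3 in each, whereas *Msgn1* ranked from 1, against WT 2, to 10, against WT 1.

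**Figure D2:**
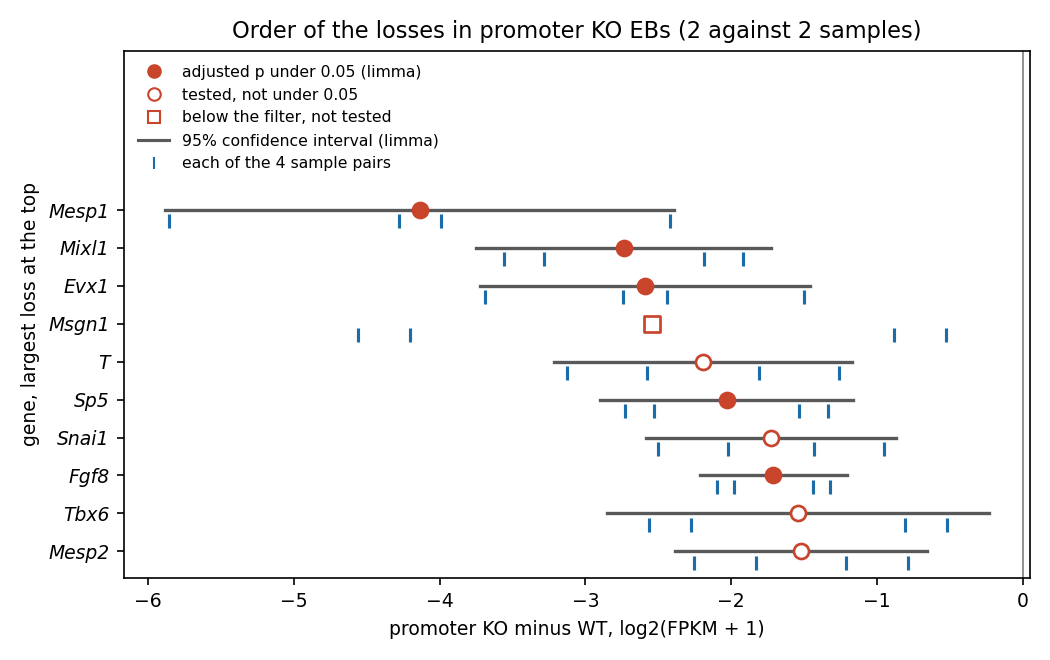
Difference between promoter KO and WT on the log2(FPKM + 1) scale for the 10 genes, with limma's 95% confidence interval for the 9 tested ones and blue ticks for the 4 pairs of samples. *Mesp1* lies furthest to the left, at −4.14, with the widest interval (−5.88 to −2.39).

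The place of the low genes in the order depended on the pseudocount. With 0.1 in place of 1, *Msgn1* moved from rank 4 to 2 (−4.57) and *Tbx6* from 9 to 5 (−2.53), and no pair of neighbours was further apart than its spread. By the plain ratio of mean FPKM, *Tbx6* in promoter KO was at 11.3% of WT and *Mesp2* at 21.7%, below the 23.5% of *T*. By that ratio *Msgn1* ranked 1, at 1.19% with its listed 0 in promoter KO 2, and *Mesp1* ranked 2, at 3.92%. *Fgf8* and *Snai1*, with 31.0% and 27.3% left, had the smallest losses by that ratio.

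Set against *T* in the same sample, 3 members were lower in promoter KO. *Mesp1* was at 8.81% and 22.5% of the FPKM of *T* in WT 1 and WT 2, but at 1.50% and 3.34% in the promoter KO samples. *Mixl1* was at 20.6% and 17.0% in WT and 11.0% and 12.5% in promoter KO. *Evx1* was at 9.95% and 13.3% in WT and 7.33% and 7.99% in promoter KO. Both promoter KO shares of these 3 genes lay below both WT shares, as in 0.159% of all tested genes other than *T*. The shares of the other 6 overlapped between genotypes, while 98.2% of all tested genes other than *T* had both promoter KO shares above both WT shares, *T* itself being low in promoter KO. Of the 6, *Sp5* varied only from 49.4% to 64.7% over the 4 samples. *Fgf8* had 64.0% and 47.4% of *T* in WT but 96.8% and 61.2% in promoter KO. The summed FPKM of the 10 genes was 858 for WT 1 and 1235 for WT 2, against 157 for promoter KO 1 and 331 for promoter KO 2, and *T* made up between 32.1% and 38.4%.

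**Figure D3:**
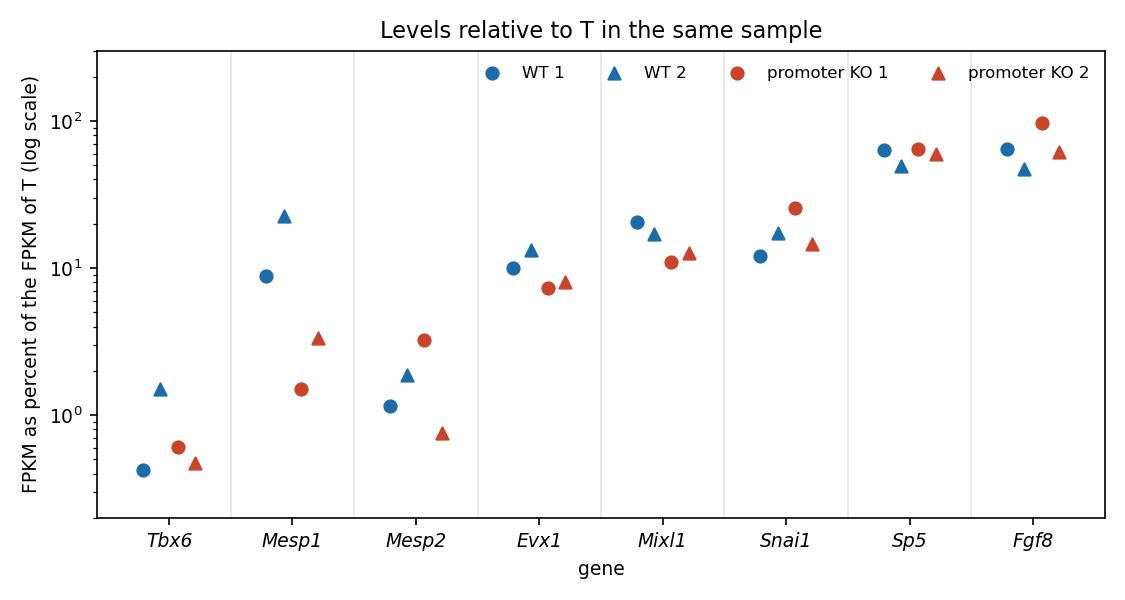
FPKM of 8 genes as a percentage of the FPKM of *T* in the same sample, on a log scale; *Msgn1*, listed at 0 in promoter KO 2, is not drawn. The red symbols of *Mesp1*, *Evx1* and *Mixl1* lie below the blue ones, and those of the other genes overlap them.

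Genes that surround the members were compared next. The median log2 fold change of the tested genes on each member's chromosome was between −0.04 and 0.14, against 0.00 for all tested genes. Within 100 kb of a member lay 34 other tested genes, with a median log2 fold change of −0.11 and a range from −1.20 (*Gad1* near *Sp5*, adjusted p = 0.0653, limma) to 0.37 (*Coro1a* near *Tbx6*, adjusted p = 0.123). Of these 3 passed an adjusted p of 0.05 in limma, all lower, against 1.89% of all tested genes lower and 1.68% higher. They were *Aldoa* near *Tbx6* (−0.66) and *Fbxw4* (−0.80) and *Npm3* (−0.63) near *Fgf8*. These 3 genes, *Gad1* and *Coro1a* were named after their values were seen. Around *Mesp1* and *Mesp2*, *Anpep*, *Ap3s2*, *Kif7*, *Pex11a* and *Ticrr* had log2 fold changes between −0.49 and 0.22, and none passed.

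Related genes of the members' families were next. In the T-box family 3 of 15 further genes were tested, and 0 passed in limma. At an unadjusted p under 0.05, 1 was lower, against 15.6% of all tested genes. *Eomes*, the T-box factor of the anterior streak, had 166 FPKM in WT 1 and 168 in WT 2, against 56.3 in promoter KO 1 and 97.1 in promoter KO 2 (log2 fold change −1.16, adjusted p = 0.0547, limma), and the log2 fold changes of *Mga* and *Tbx3* were 0.13 and 0.37 (adjusted p = 0.528 and 0.687, limma). In the Sp family 6 of 8 further genes were tested and 0 passed. At an unadjusted p under 0.05, 1 was lower and 1 higher, against 15.6% and 15.0% of all tested genes. The log2 fold changes ran from −0.49 for *Sp8* (adjusted p = 0.0970) to 0.36 for *Sp6* (adjusted p = 0.214, limma). Of the SNAIL family, *Snai3* was tested (log2 fold change 0.05, adjusted p = 0.860, limma), and *Snai2* stayed at or below 0.256 FPKM in every sample. *Fgf17*, of the FGF8 subfamily, had 8.06 and 8.25 FPKM in WT against 2.63 and 4.20 in promoter KO and fell by 1.08 on the log2 scale (adjusted p = 0.0488, limma), while *Fgf18* did not reach 1 FPKM in any sample.

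Of the genes that induce the streak, the ligand *Nodal* rose and the co-receptor *Tdgf1* fell. Of 11 such ligands, co-receptors and processing enzymes 10 were tested, with a median log2 fold change of 0.01 against 0.00 for all tested genes. At an adjusted p under 0.05 in limma, 1 was lower and 1 higher, against 1.89% and 1.68% of all tested genes. At an unadjusted p under 0.05, 3 were lower and 4 higher, against 15.6% and 15.0% of all tested genes. *Nodal*, the TGF-β ligand that induces mesendoderm, had 75.1 and 62.3 FPKM in WT against 117 and 112 in promoter KO, and rose by 0.74 on the log2 scale (standard error 0.11, adjusted p = 0.0389, limma). Its co-receptor *Tdgf1* (Cripto) had 415 and 442 FPKM in WT against 273 and 310.1 in promoter KO, and fell by 0.55 (standard error 0.09, adjusted p = 0.0422, limma). Larger differences did not pass, as in the ligands *Wnt3* (log2 fold change −1.28, adjusted p = 0.0511, limma), *Fgf4* (1.48, 0.0514) and *Gdf3* (1.54, 0.0608), named after their values were seen. The count of 2 became 1 without WT 1 and 4 without promoter KO 2.

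Downstream of Wnt, 12 of 14 response genes were tested, with a median of −0.49. At an adjusted p under 0.05 in limma, 2 were lower and 0 higher, against 1.89% and 1.68% of all tested genes. *Rnf43* reached 1 FPKM in the WT samples only, and without it the median was also −0.49. *Nkd1*, a feedback inhibitor (6.91 and 9.34 FPKM in WT against 2.24 and 3.62 in promoter KO, log2 fold change −1.22), and *Dkk1*, a secreted antagonist (7.34 and 8.94 in WT against 3.17 and 3.35, −1.09), fell, with adjusted p of 0.0490 and 0.0371 in limma. No other gene passed, and 0 passed without WT 1 and 1 without promoter KO 2. Of the FGF receptors, FGF8 subfamily and ERK feedback genes, 16 of 18 were tested, with a median of 0.05. In this list 1 gene was lower and 1 higher at that threshold, against the same shares of 1.89% and 1.68%. Besides *Fgf17*, only *Fgfr4* passed, higher in promoter KO, with 0.738 and 0.830 FPKM in WT against 2.54 and 2.18 (log2 fold change 0.91, adjusted p = 0.0453, limma). It reached 1 FPKM in the promoter KO samples only, and so passed the filter through them (median without it 0.03). Without WT 1 the count of 2 was 1.

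**Figure D4:**
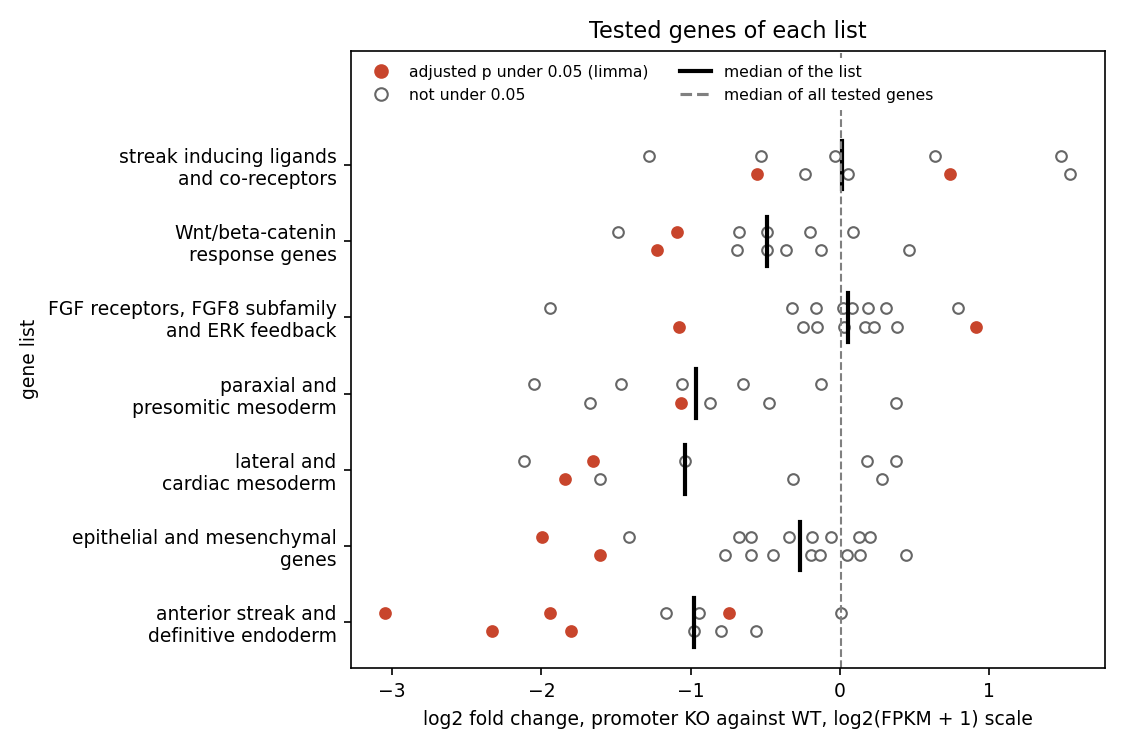
Log2 fold changes (promoter KO against WT, log2(FPKM + 1) scale) of the tested genes of each list, in red where the adjusted p was under 0.05, with the median of each list as a black bar and that of all tested genes as a dashed line. The medians of the lists lie between −1.04 and 0.05, that of all tested genes at 0.00. Without the genes that reached 1 FPKM in the samples of 1 genotype only, they lie between −0.98 and 0.03.

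In the paraxial and presomitic mesoderm list 10 of 20 genes were tested, with a median of −0.97, and in 5 of the 10 both promoter KO samples were below both WT samples, against 32.4% of all tested genes. Of the 5, *Foxc1* passed the filter only through the WT samples, and without it the median was −0.87. *Cyp26a1*, the most abundant of the list in WT, was among them (41.1 and 105 FPKM in WT against 12.2 and 18.8 in promoter KO, log2 fold change −2.05, adjusted p = 0.0575, limma), but not *Tcf15*, the most abundant by the mean of all 4 samples (48.5 and 33.1 FPKM in WT against 65.7 and 41.7 in promoter KO). Both were named after their values were seen. Of the 10 genes only *Nrarp*, a Notch feedback gene, passed (15.4 and 17.0 FPKM in WT against 6.06 and 8.52 in promoter KO, log2 fold change −1.07, adjusted p = 0.0422, limma). Of all tested genes 1.89% passed as lower. Without WT 1, 4 genes of the list passed. In the lateral and cardiac mesoderm list 9 of 15 genes were tested, with a median of −1.04. *Hand1* and *Kdr*, named for reaching 1 FPKM in the WT samples only, passed the filter through them, and the median of the other 7 was −0.32. *Etv2*, which specifies blood and endothelium, fell by 1.84 from 22.5 and 29.8 FPKM in WT to 7.64 and 5.50 in promoter KO (adjusted p = 0.0244, limma). *Gata6* fell by 1.65 (adjusted p = 0.0389, limma). These 2 of the 9 tested genes passed, both lower, against 1.89% of all tested genes. Without WT 1 the count of 2 was 4, and without promoter KO 2 it was 1.

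Among 20 epithelial and mesenchymal genes tied to the action of SNAI1, 18 were tested, with a median of −0.27 (−0.19 without *Zeb2*, which reached 1 FPKM in WT only). At an unadjusted p under 0.05, 6 were lower and 1 higher, against 15.6% and 15.0% of all tested genes. The 6 were *Cdh2*, *Cdh11*, *Fn1*, *Zeb2* and the epithelial keratins *Krt8* and *Krt18*, and the higher one was the epithelial gene *Ocln*, named after their values were seen. The mesenchymal cadherins *Cdh2* (N-cadherin) and *Cdh11*, 2 of the 18, passed an adjusted p of 0.05 in limma as lower, against 1.89% of all tested genes. *Cdh2* had 30.4 and 44.4 FPKM in WT against 9.41 and 13.8 in promoter KO (log2 fold change −1.61, adjusted p = 0.0384, limma). *Cdh11* had 11.1 and 14.1 FPKM in WT against 1.82 and 3.07, its promoter KO mean being 19.4% of the WT mean (adjusted p = 0.0269, limma). No epithelial gene passed in either direction, and without WT 1 the count of 2 was 5 (3 without promoter KO 2). The anterior streak and definitive endoderm genes had the most calls of these 7 lists, 5 of 11 tested genes of 12, with a median of −0.98. All 5 were lower, against 1.89% of all tested genes. They were *Lhx1* (log2 fold change −3.04), *Gsc* (−2.33), *Cxcr4* (−1.94), *Cer1* (−1.80) and *Hhex* (−0.74), with adjusted p between 0.0208 and 0.0493 in limma, and the count was 3 without WT 1. In each of the 7 lists 0 genes passed in limma without WT 2 and without promoter KO 1, as in all tested genes (1875 and 2009 of which were below an unadjusted p of 0.05).

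The genes nearest to the members in profile, by Euclidean distance over the 4 samples between centred log2(FPKM + 1) values and the mean centred profile of the 9 tested members, were *Six2* (distance 0.122), *Nxph4* (0.184), *Pcdh7* (0.184), *5730457N03Rik* (0.188) and *Aldoc* (0.271). *Six2*, a homeobox gene, had 7.26 FPKM in WT 1 and 15.3 in WT 2, against 0.921 in promoter KO 1 and 2.17 in promoter KO 2. It was closer to that profile than any member, of which *T* was the closest (0.398) and *Mesp1* the furthest (2.08). *Nxph4* and *Pcdh7*, which encode a neurexophilin and a protocadherin, had 7.08 and 8.55 FPKM in WT 1 and 12.5 and 14.7 in WT 2. Their promoter KO values were 0.884 and 0.967 for sample 1 and 2.15 and 2.95 for sample 2. The 5 genes, picked for this likeness, had log2 fold changes between −2.27 and −2.10. Whether the symbol *5730457N03Rik* stands for a gene that overlaps a member was not checked.

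Lists of markers of other cell types were also examined, and most of their calls were in that of extraembryonic endoderm. Of 16 markers of extraembryonic endoderm, all tested, 8 rose and 1 (*Gata6*) fell at an adjusted p under 0.05 in limma. Of all tested genes 1.68% were higher and 1.89% lower at that threshold. The median log2 fold change of the 16 was 1.17. Of the 8, *Sox7* and *Cubn* reached 1 FPKM in the promoter KO samples only, and so passed the filter through them. Without these 2 genes the median was 0.84. Their summed level was 773 FPKM for WT 1 and 805 for WT 2, against 1081 for promoter KO 1 and 1268 for promoter KO 2, most of it from *Apoe* (635, 617, 808 and 924 FPKM), and none was at 0 in all samples. The list shares 4 genes with the other lists. Of 8 naive mESC markers 7 were tested and 0 passed in limma. At an unadjusted p under 0.05, 4 were higher, against 15.0% of all tested genes. The median of the 7 was 0.85, and 4 of the 7 were above WT in both promoter KO samples, against 32.9% of all tested genes. The sum over the list was 50.3 FPKM for WT 1 and 107 for WT 2, against 209.7 for promoter KO 1 and 118 for promoter KO 2, led by *Klf2*.

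Of the shared pluripotency genes 0 of 3 passed in limma. At an unadjusted p under 0.05, 1 was lower and 1 higher, against 15.6% and 15.0% of all tested genes. The sums were 1727, 1403, 1817 and 1773 FPKM in the 2 WT and then the 2 promoter KO samples, mostly *Pou5f1*. Of 5 primed epiblast markers 1 was higher at an adjusted p under 0.05 in limma, against 1.68% of all tested genes. The sums of these markers, led by *Dnmt3b*, were 649, 478, 668 and 705 FPKM in the same order. Of 6 neuroectoderm markers 1 was tested, with sums over the list of 22.5, 25.2, 9.44 and 17.2 FPKM, mostly from *Nes*, which did not pass (adjusted p = 0.0831, limma). The other 5, under 1 FPKM in every sample and not tested, were higher in both promoter KO samples than in both WT samples. This separation was found in 32.9% of all tested genes, and its share among genes below the filter was not computed. Trophoblast markers summed to 13.5, 21.1, 6.76 and 6.63 FPKM, with *Tfap2c* as the most abundant and *Prl3d1* at 0 in all samples. *Tfap2c* was the 1 lower call of 2 tested genes, against 1.89% of all tested genes. Fibroblast markers summed to 12.8, 12.3, 17.3 and 10.6 FPKM, with *Thy1* as the most abundant and *Postn* at 0 in all samples. Of 2 tested genes 0 were called in limma. At an unadjusted p under 0.05, 1 was lower, against 15.6% of all tested genes. This gene, *Col1a1*, reached 1 FPKM in the WT samples only, and so passed the filter through them. The part of these markers in the lower values of the streak and mesoderm factors was not tested.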

How the data were processed

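RNA-seq expression values of day 3 EBs were analysed in 2 WT and 2 promoter KO samples, grouped by their labels. The authors deposited values estimated with Cufflinks on GRCm38/mm10, in 1 file per sample, whose columns name no unit and were taken as FPKM. The study's methods name TopHat as the aligner and call the unit RPKM, whereas the submitters' processing notes name HISAT2 2.1.0, Cufflinks and Cuffnorm; which aligner made these values could not be settled. The values were thus read as scaled for depth and transcript length, and whether Cuffnorm scaled the samples to each other is not stated. Of the 24347 gene rows, 27 carry a calendar date as symbol and 2 symbols are listed more than once; none is a gene described here.

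Genes that reached 1 FPKM in 2 or more samples (11941 genes) were tested, as log2(FPKM + 1), for genotype with limma 3.58.1 in R 4.3.3 (lmFit, eBayes with an intensity trend, 3.99 prior degrees of freedom) without covariates or further scaling, with Benjamini-Hochberg adjustment of p over all tested genes. The study calls its samples biologically independent, while the labels only number them, so p-values measure the spread between these samples. Fragment depth was estimated from genes with 1 annotated transcript, at an assumed fragment length of 200 bases, and the fragments behind a gene's value are estimates on GENCODE M21 lengths. Near-identical copies were searched with BLAST 2.17.0. Tables and figures were made with Python 3.11.15, numpy 2.4.6, pandas 2.3.3 and matplotlib 3.10.9. The procedure was tested on simulated data.

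Neighbours in the order of losses were compared with the pooled SD of their within-sample log2 difference. The members and lists were chosen with earlier results of these data known. Named are the members and *Gm11549*; up to 5 genes with an adjusted p under 0.05 from each list, by size of change (none of the 7 lists lacked such a gene); tested genes of the T-box, Sp, SNAIL and FGF8 families; the 5 genes nearest in profile; genes overlapping a member; and the most abundant gene of each marker list. Alternatives were the replicate number as a block, a pseudocount of 0.1, no filter, a filter at a mean of 5 FPKM, no trend, centring, quantile normalization, each sample left out in turn, and ratios without a pseudocount. Count models do not apply to FPKM and were left out.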

Additional observations from a re-analysis of the deposited data

How the results depend on the processing

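Precision is limited by 2 samples per genotype. Low fragment numbers limit it further for *Tbx6*, *Mesp2* and *Msgn1*, and for *Mesp1* in promoter KO 1 (about 17.6 fragments). Each member's difference stayed negative under every alternative tabled for it. The difference of *Msgn1* was not tabled under quantile normalization, centring, the replicate block, the fit without the trend or the higher filter (mean of 5 FPKM). At that filter 8 members were tested. *Msgn1*, with a mean of 5.93 FPKM, was among them and did not pass, while *Tbx6* and *Mesp2* were not tested there. The count of 10 members with separate genotypes held under centring and quantile normalization. The calls were less stable. Of 226 lower and 201 higher genes, 0 were left without a filter (1982 lower and 2077 higher at an unadjusted p under 0.05), 27 and 55 without the trend and 108 and 95 with a filter at a mean of 5 FPKM, where 8562 genes were tested. With centring 126 were lower and 157 higher. The 5 calls among members became 0 without a filter (8 of 10 at an unadjusted p under 0.05) or without the trend (9 of 9). Without the trend 1811 of all tested genes were lower and 1655 higher at that unadjusted p. The 5 calls became 2 with centring or the filter at 5 FPKM, and 3 with the pseudocount of 0.1 or quantile normalization. The adjusted p of *Mesp1* ranged from 0.00205 to 0.198 and that of *Fgf8* from 0.00809 to 0.171. With the pseudocount of 0.1, 0 neighbours in the order of losses were further apart than their spread, against 1. Leaving out 1 sample gave 0 to 248 lower genes, 0 to 238 higher genes and 0 to 6 members. The cause of these shifts was not tested.

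The replicate number pairs no samples by any source, and the deviations of same-numbered samples correlated at 0.0348 across genes. With the number as a replicate block, 667 genes were lower, 535 were higher and 7 members passed, *T* and *Snai1* in addition to the 5. The block gave 5 calls in the streak ligand list, 3 in the Wnt list, 4 in the FGF list, 5 in the paraxial list, 4 in the epithelial and mesenchymal list and 7 in the anterior list.

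In the lists of 2, 2, 2, 1, 2, 2 and 5 calls (streak ligands, Wnt, FGF, paraxial, lateral, epithelial and mesenchymal, anterior), 0 were left without a filter. Without the trend the counts were 0, 1, 0, 0, 1, 1 and 2. The Wnt and FGF lists had 1 call with the pseudocount of 0.1, centring or quantile normalization, and 1 and 0 with the filter at 5 FPKM. The anterior list had 3 with centring, quantile normalization or that filter. Leaving out 1 sample gave 0 to 4 calls in the streak ligand, paraxial and lateral lists, 0 to 1 in the Wnt list, 0 to 2 in the FGF list, 0 to 5 in the epithelial and mesenchymal list and 0 to 4 in the anterior list.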
